A study of Arabidopsis thaliana with 9 samples.

Results

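The genes described here are 4 glutathione transferases of Arabidopsis thaliana, the tau class genes GSTU18 (AT1G10360), GSTU25 (AT1G17180) and GSTU26 (AT1G17190) and the phi class gene ATGSTF13 (AT3G62760, GSTF13 in the usual naming). They were taken by name, each with the 1 probe set annotated to it alone, so they are 4 of 5927 genes and 4 of 11228 probe sets that could be compared. They had been chosen by how their signal on these 9 arrays moved over the 3 groups of the study, so every contrast between the groups is given for them as a description, without a test. The groups were wild-type whole seedlings that were 4 d old and not yet transferred (0 d), and such seedlings 2 d and 8 d after transfer at that age to medium with 45 µM FPX (FPX 2 d and FPX 8 d), with 3 Affymetrix arrays each. FPX is named in the study's title as an inducer of callus and shoot regeneration, and the stated aim was to find the genes it affects. All 3 groups were wild type and began on MS medium. Seedlings on FPX had aged by 2 and 8 d beyond the 0 d group, and the raw data of the 0 d arrays also belong to another series. Treatment, age and any difference between array runs therefore cannot be told apart in a contrast with 0 d. Seedlings at FPX 8 d were also older than those at FPX 2 d, and no group of either age was kept off FPX. Time on FPX and age therefore cannot be told apart in that contrast either.

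Glutathione transferases join the tripeptide glutathione to reactive, often foreign, compounds, which makes these soluble and marks them for transport into the vacuole by ABC transporters of the ABCC group. The tau and phi classes are the large plant classes of the family and are known from herbicide detoxification and from responses to stress, and many of their genes are switched on by foreign compounds through TGA transcription factors. GSTU25 is known for conjugating the explosive TNT.

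The 4 genes followed 3 courses. GSTU26 and ATGSTF13 were lower after 2 d on FPX than at 0 d and higher after 8 d than at either earlier time. GSTU25 was at about its starting signal at 2 d and higher at 8 d. GSTU18 was slightly lower at 2 d and far lower at 8 d. An early and a late change of opposite sign was therefore present in 3 of the 4, and for GSTU25 the early change was smaller than its standard error. In GSTU18 both changes were downward, so the description of the 4 genes as moving in opposite directions early and late did not hold for it.

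The deposited table holds probe sets that differ with time. In a one-way test of log2 signal by group, 99.77% of the 11228 probe sets had a p under 0.04, so shares of the table are not shares of the genome. Changes below are differences of log2(signal + 16), where signal is the linear MAS5 value, and errors on them are standard errors from a limma fit over the whole table. Over all probe sets the median log2 change was 0.17 for FPX 2 d minus 0 d, 0.36 for FPX 8 d minus 0 d and 0.15 for FPX 8 d minus FPX 2 d. A probe set was called at a Benjamini-Hochberg adjusted p under 0.05. That held for 72.7%, 91% and 76% of probe sets in these contrasts. These tests used the same arrays on which nearly all probe sets of the table differ. Their adjusted p-values are therefore conditional on how the table was chosen and may understate false calls. Listed genes could be found only if their probe sets were in it. The groups of arrays did not overlap for 76.3% of all probe sets at 2 d against 0 d, 91.8% at 8 d against 0 d and 79.7% at 8 d against 2 d. Of the 4 genes, 3, 4 and 4 had groups that did not overlap in these contrasts, counts that follow from how the genes were picked.

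GSTU18 gave signals of 1087, 1126 and 1024 at 0 d, of 875, 939.7 and 923 at FPX 2 d and of 247, 229.7 and 228 at FPX 8 d. Every treated array lay below every 0 d array, and the 8 d arrays lay far below the rest. The mean was 1079 ± 51.6 (SD, n = 3) at 0 d, 913 ± 33.4 at 2 d and 235 ± 10.5 at 8 d, and the SD was under 5% of the mean in each group. The log2 change was −0.24 ± 0.08 for FPX 2 d minus 0 d, −1.89 ± 0.08 for FPX 8 d minus FPX 2 d and −2.13 ± 0.08 for FPX 8 d minus 0 d, the last a 4.37-fold lower value on that scale. Of all probe sets, 1.64% had a lower change from 2 d to 8 d.

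GSTU25 gave signals of 886, 919 and 644 at 0 d, of 721, 708 and 840.3 at FPX 2 d and of 3316, 2849 and 3547 at FPX 8 d. The 0 d and 2 d arrays overlapped, and all 8 d arrays lay above them. The mean was 816 ± 150.4 (SD, n = 3) at 0 d, 757 ± 72.7 at 2 d and 3237 ± 356 at 8 d. The log2 change was −0.09 ± 0.14 for FPX 2 d minus 0 d, and the sign of this small value was positive (0.01) when arrays were scaled on hybridization controls. It was 2.07 ± 0.14 for FPX 8 d minus FPX 2 d and 1.98 ± 0.14 for FPX 8 d minus 0 d, which is 3.94-fold. Among all probe sets 99.1% had a lower change from 2 d to 8 d.

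GSTU26 gave signals of 664, 708 and 842 at 0 d, of 310.4, 287 and 306 at FPX 2 d and of 2223, 1469 and 1456 at FPX 8 d. No group overlapped another, the 2 d arrays were the lowest and the 8 d arrays the highest. The mean was 738 ± 93.1 (SD, n = 3) at 0 d, 301 ± 12.6 at 2 d and 1716 ± 439 at 8 d. The log2 change was −1.24 ± 0.15 for FPX 2 d minus 0 d, 2.42 ± 0.15 for FPX 8 d minus FPX 2 d and 1.18 ± 0.15 for FPX 8 d minus 0 d. Replicate 1 at 8 d stood above the other 2 arrays of its group, and without it the change for FPX 8 d minus 0 d was 0.98 and that for FPX 8 d minus FPX 2 d was 2.22. Of all probe sets 3.28% had a lower change at 2 d against 0 d, and 99.5% had a lower one from 2 d to 8 d.

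ATGSTF13, the phi class gene, has a dim probe set, one of the 2807 probe sets with the lowest mean over the 9 arrays. Its signals were 126, 141 and 85.1 at 0 d, 43.7, 40.4 and 46.6 at FPX 2 d and 347, 299.6 and 282 at FPX 8 d. As with GSTU26, the 3 groups did not overlap, with the 2 d arrays lowest and the 8 d arrays highest. The mean was 117 ± 28.8 (SD, n = 3) at 0 d, 43.6 ± 3.09 at 2 d and 309.6 ± 33.8 at 8 d. The log2 change was −1.14 ± 0.15 for FPX 2 d minus 0 d, 2.45 ± 0.15 for FPX 8 d minus FPX 2 d and 1.31 ± 0.15 for FPX 8 d minus 0 d. The value added before the logarithm weighs on so dim a probe set, and the change from 2 d to 8 d was 2.80 with 1 added and 1.79 with 64 added. The mean signal at 8 d was 7.11 times that at 2 d. Without 0 d replicate 3, the lowest of its group, the change at 2 d was −1.33.

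**Figure D1:**
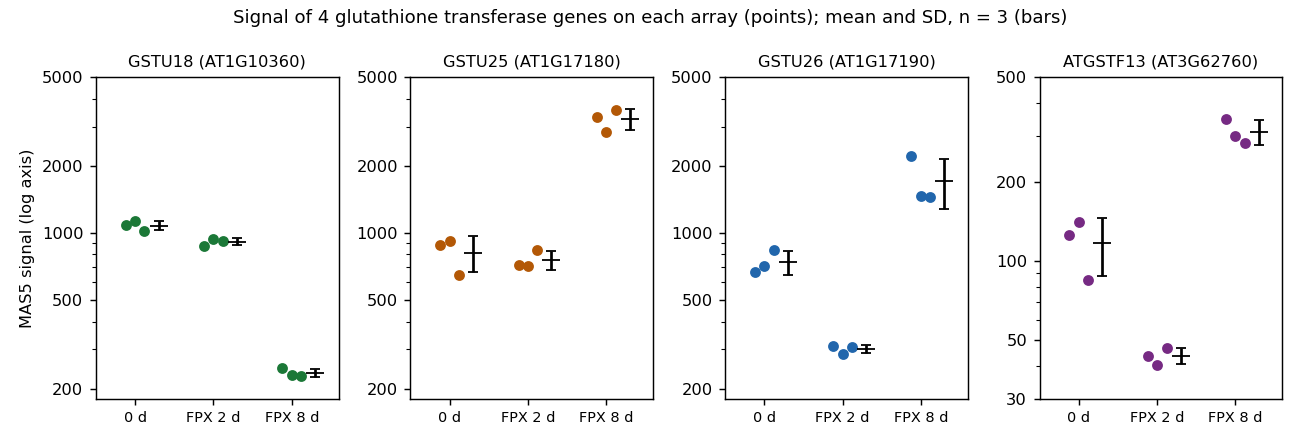
MAS5 signal (log axis, with its own range for ATGSTF13) of the 4 genes on each of the 9 arrays in the groups 0 d, FPX 2 d and FPX 8 d. Points are single arrays and bars are the mean with the SD of 3 arrays. GSTU26 and ATGSTF13 are lowest at 2 d and highest at 8 d, GSTU25 is high only at 8 d, and GSTU18 is low at 8 d, between 228 and 247.

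Arrays of one group spread differently for the 4 genes. The SD as a share of the mean ran from 3.66% to 4.78% for GSTU18, from 9.6% to 18.4% for GSTU25, from 4.2% to 25.6% for GSTU26 and from 7.1% to 24.6% for ATGSTF13. The 0 d array of replicate 3 gave the lowest value of its group for GSTU18, GSTU25 and ATGSTF13 and the highest for GSTU26.

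In the RefSeq annotation (TAIR10.1), GSTU25 and GSTU26 are next to each other on chromosome 1, and their courses differed at 2 d. The log2 change at FPX 2 d minus 0 d was −1.24 ± 0.15 for GSTU26 and −0.09 ± 0.14 for GSTU25, while from 2 d to 8 d it was 2.42 and 2.07. GSTU24, on the other side of GSTU25, is related to it, and no probe set of that gene alone was found. GSTU18 is next to ERD9 (AT1G10370, also GSTU17), a gene known from dehydration stress, and the annotated ends of these 2 genes overlap. ERD9 was not found under a probe set of its own either. Cross-hybridization between related or overlapping transcripts was not tested. ATGSTF13 lies on chromosome 3, between BGLU8 and AtATG18a, and neither neighbour was found under a probe set of 1 gene.

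Other probe sets of the table had a course like that of GSTU26 and ATGSTF13. By calls (lower at 2 d, then higher from 2 d to 8 d and above 0 d) such a course held for 283 probe sets (2.52%). With bounds fitted to the values of these 2 genes after they were seen, a log2 change of −1 or less for FPX 2 d minus 0 d, of 2 or more for FPX 8 d minus FPX 2 d and of 1 or more for FPX 8 d minus 0 d was found for 19 of 11228 probe sets (0.169%), which include both, so nothing is read from that count. Under other settings either gene can miss a bound. ATGSTF13 had −0.74 for FPX 2 d minus 0 d and 1.79 for FPX 8 d minus FPX 2 d with 64 added, and 0.96 for FPX 8 d minus 0 d after quantile normalization, and GSTU26 had 0.98 for FPX 8 d minus 0 d without FPX 8 d replicate 1 and 0.92 with array medians set equal. Of the 19, 13 belonged to 1 gene. The only other one with a symbol was sks15 (AT4G37160), of the SKU5-similar family related to multicopper oxidases, with changes of −2.22, 3.76 and 1.55 in these contrasts. Among the rest, AT1G52050, AT1G52060 and AT1G52070, have consecutive locus codes, with changes of −2.52, −3.36 and −2.07 for FPX 2 d minus 0 d.

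**Figure D2:**
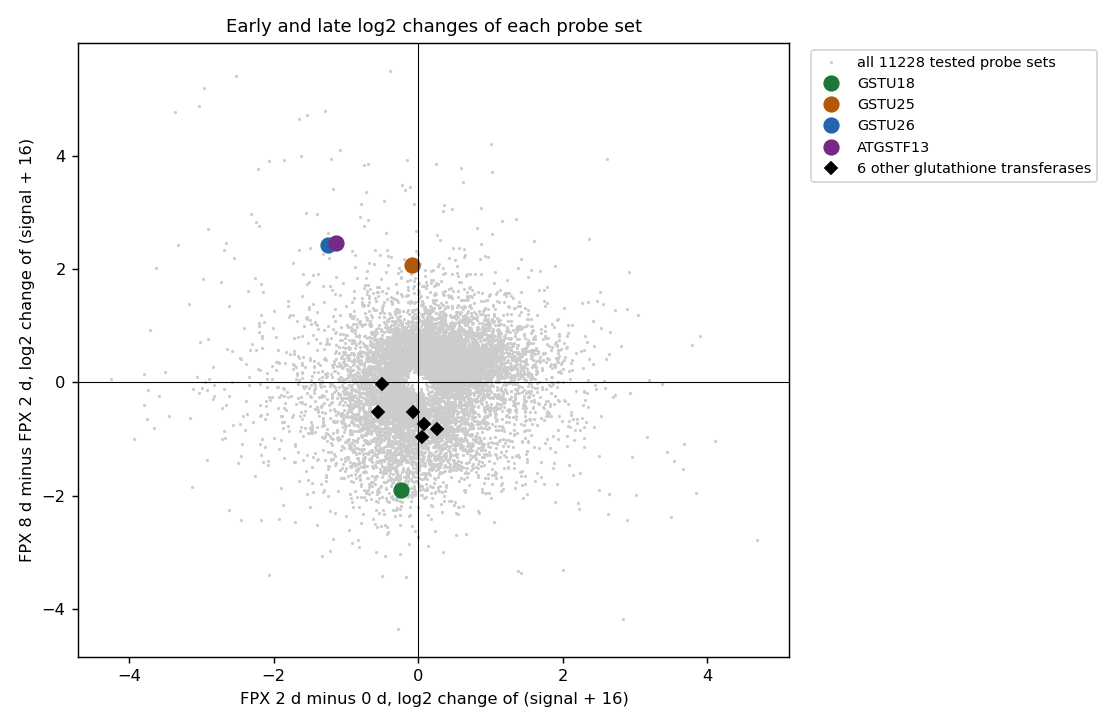
Log2 change for FPX 2 d minus 0 d (horizontal) against that for FPX 8 d minus FPX 2 d (vertical) of all 11228 tested probe sets (grey), the 4 genes (coloured circles) and 6 other glutathione transferases (black diamonds). The 2 d arrays enter both axes, so errors in them push points toward opposite signs. GSTU26 and ATGSTF13 lie together at the upper left (−1.24 and 2.42, −1.14 and 2.45), GSTU25 above the centre and GSTU18 below it.

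The genes most like each of the 4 were sought among 905 probe sets of genes with a symbol, by Pearson correlation of log2(signal + 16) over the 9 arrays. The arrays fall into 3 groups and share their scaling, so these values mainly follow the group means. GSTU18 was most like TROL (AT4G01050), which anchors ferredoxin-NADP reductase at the thylakoid, PRK (AT1G32060), the phosphoribulokinase of the Calvin cycle, and TAPX (AT1G77490), the thylakoid ascorbate peroxidase, each at r = 0.996. All 3 of these encode chloroplast proteins, whose share among the 905 was not counted, so nothing is read from this. The mean signals at 0, 2 and 8 d were 3533, 3166 and 1033 for TROL, 9884, 8994 and 3156 for PRK and 2136, 1580.0 and 358 for TAPX.

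GSTU25 was most like YLS5 (AT2G38860, r = 0.983), GID1B (AT3G63010, r = 0.981), a gibberellin receptor, and SPT (AT4G36930, r = 0.976), the SPATULA transcription factor. Their mean signals at 0, 2 and 8 d were 658, 661 and 2028 for YLS5, 352, 341 and 586 for GID1B and 316, 284 and 1288 for SPT. GSTU26 was most like sks15 (r = 0.983), SWEET1 (AT1G21460, r = 0.980), a sugar transporter, and GER2 (AT1G17890, r = 0.979), of GDP-fucose synthesis. The means at 0, 2 and 8 d were 391, 73.1 and 1181 for sks15, 877, 542 and 1592 for SWEET1 and 671, 443 and 1380.1 for GER2. All 3 were lowest at 2 d and highest at 8 d, by different amounts.

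ATGSTF13 was most like IAGLU (AT4G15550, r = 0.988), annotated as a glucosyltransferase of the auxin indole-3-acetic acid, UGT73B4 (AT2G15490, r = 0.973), a glycosyltransferase, and FYD (AT3G12570, r = 0.972). Their mean signals at 0, 2 and 8 d were 1099, 774 and 1912 for IAGLU, 366, 202 and 1619.9 for UGT73B4 and 666, 573 and 883 for FYD. The direction of the course was the same in these genes, and its size ran from changes of −0.20 and 0.61 in FYD (FPX 2 d minus 0 d, then FPX 8 d minus FPX 2 d) to −0.80 and 2.91 in UGT73B4.

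**Figure D3:**
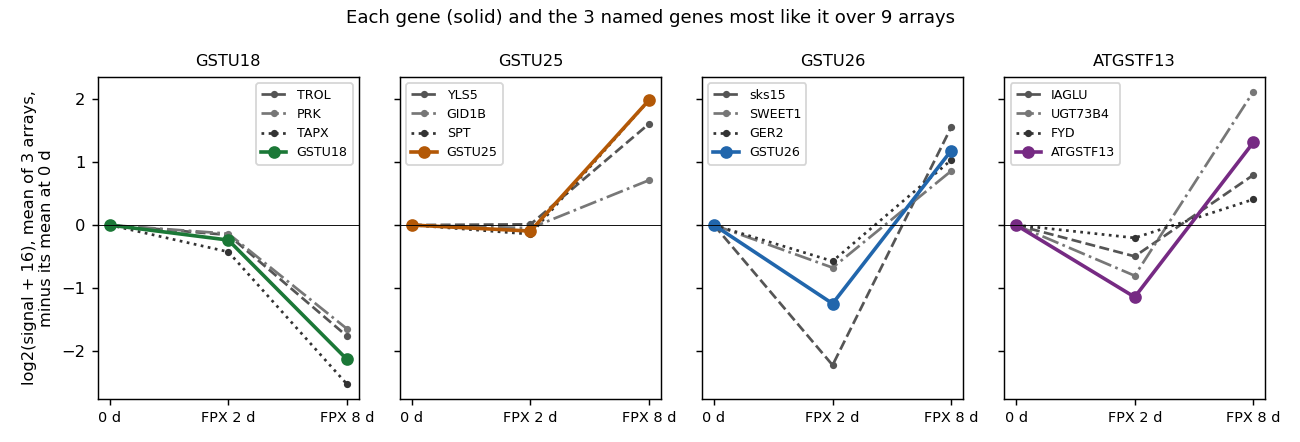
Mean log2(signal + 16) of 3 arrays minus the mean at 0 d (vertical) in the groups 0 d, FPX 2 d and FPX 8 d, for each of the 4 genes (solid, coloured) and the 3 named genes most like it over the 9 arrays (broken lines). TROL, PRK and TAPX run downward with GSTU18, and the genes beside GSTU26 and ATGSTF13 dip at 2 d and end above 0 d.

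Of 49 other genes listed for the glutathione transferase family, 6 were found in the table under a probe set of 1 gene. Of these, 6 of 6 fell at FPX 8 d against 0 d, a contrast in which 36.1% of all probe sets were called lower. They were GSTU22 (−1.07 ± 0.20, limma adjusted p = 0.000324), GSTF4 (−0.90 ± 0.18), GSTU20 (−0.66 ± 0.14), GSTU16 (−0.60 ± 0.08), GSTL3 (−0.58 ± 0.08) and GSTU27 (−0.53 ± 0.10). GSTU22 and GSTF4 have dim probe sets. With other values added before the logarithm, the change of GSTF4 ran from −1.14 to −0.55 and that of GSTU22 from −1.15 to −0.87. The median log2 change of the 6 was −0.63, against 0.36 over all probe sets. GSTU25, GSTU26 and ATGSTF13 were higher in that contrast and GSTU18 lower than any of the 6. The difference between the 4 genes and the 6 was not tested, since the 4 had been picked for their changes.

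Between 2 d and 8 d, 5 of the 6 fell, where 32.1% of all probe sets were called lower. GSTF4 changed by −0.96 ± 0.18, GSTL3, of the lambda class known for thiol transfer, by −0.83 ± 0.08 (limma adjusted p = 4.22e-06), GSTU20, which is known to bind the jasmonate-conjugating enzyme FIN219, by −0.74 ± 0.14, GSTU16 by −0.52 ± 0.08 and GSTU22 by −0.52 ± 0.20. The sixth, GSTU27, had a value of −0.03 ± 0.10 (adjusted p = 0.793). The call of GSTU22 (adjusted p = 0.0318) ended under the scaling on hybridization controls and without FPX 8 d replicate 1 (−0.48) or 2 (−0.33) or FPX 2 d replicate 2 (−0.43) or 3 (−0.47).

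At FPX 2 d against 0 d, 1 of the 6 rose and 2 fell, where 44.6% of all probe sets were called higher and 28.1% lower. GSTL3 rose, with signals of 2902, 2698 and 2765 at FPX 2 d against 2495, 2300.4 and 2205 at 0 d (0.26 ± 0.08, limma adjusted p = 0.015). GSTU22 (−0.55 ± 0.20) and GSTU27 (−0.50 ± 0.10) fell, and GSTF4, GSTU20 and GSTU16 had values of 0.06, 0.08 and −0.07 that did not pass. Without FPX 2 d replicate 1 the count of calls was 1 in place of 3, with GSTL3 at 0.23 and GSTU22 at −0.41. GSTL3 also did not pass without 0 d replicate 3 (0.22) or with array medians set equal (0.07), where GSTU16 was called lower (−0.25, adjusted p = 0.0131) and the calls were 0 up and 3 down, and GSTU22 did not pass without 0 d replicate 2 (−0.43) or under the scaling on hybridization controls (−0.44).

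**Figure D4:**
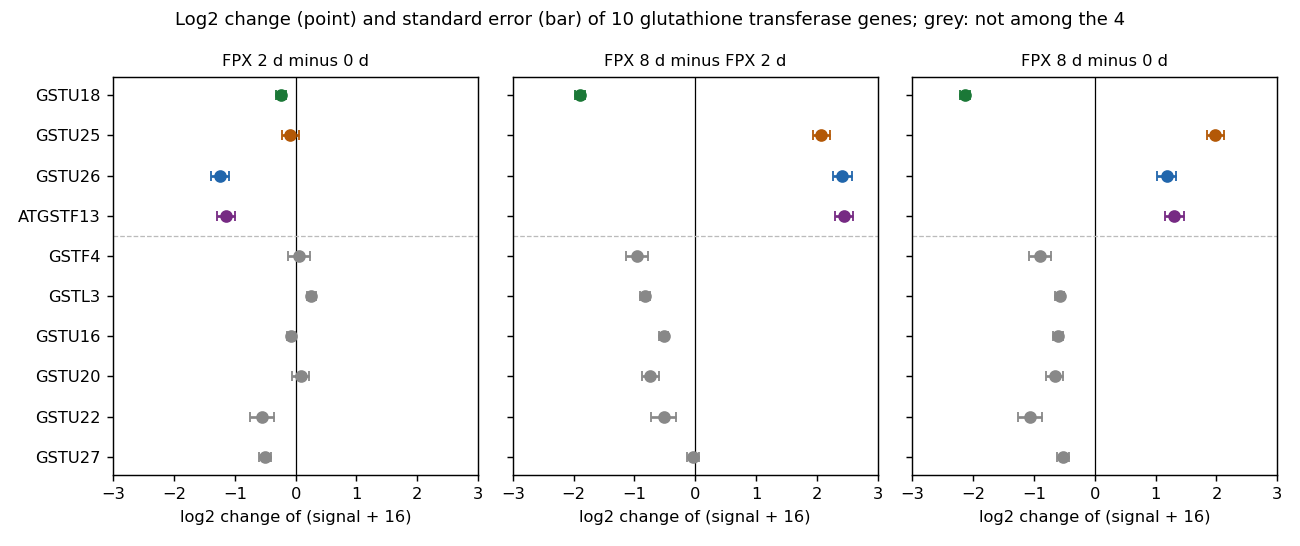
Log2 change of signal + 16 (point) with its standard error (bar) for 10 glutathione transferase genes, the 4 above the dashed line and 6 others (grey) below it. Panels show FPX 2 d minus 0 d, FPX 8 d minus FPX 2 d and FPX 8 d minus 0 d. In the panel of FPX 8 d minus 0 d, GSTU25 (1.98), ATGSTF13 (1.31) and GSTU26 (1.18) lie right of 0, and GSTU18 (−2.13) and the 6 others lie left of it.

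Of 30 listed genes of glutathione supply and recycling, 2 were found, both glutathione reductases, which turn oxidized glutathione back to its reduced form. At FPX 2 d against 0 d, where 44.6% of all probe sets were called higher, both rose, GR1 (AT3G24170, cytosol and peroxisomes) by 0.33 ± 0.08 (limma adjusted p = 0.00428) and GR (AT3G54660, chloroplasts and mitochondria) by 0.43 ± 0.11 (adjusted p = 0.0042), and with array medians set equal neither passed, at 0.14 and 0.25. From 2 d to 8 d, where 32.1% were called lower, both fell, with log2 changes of −0.52 for GR1 and −1.0 for GR. At FPX 8 d against 0 d, where 36.1% were called lower, GR fell (−0.57 ± 0.11). GR1 passed narrowly (−0.20, limma adjusted p = 0.0415). It did not pass after quantile normalization (−0.03), under the replicate block (−0.20, adjusted p = 0.0516) or when any 1 array other than FPX 8 d replicate 3 was left out (−0.21 to −0.14), and had a value of 0.05 under the scaling on hybridization controls.

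Of 30 listed partners in detoxification (ABCC transporters, TGA factors and genes known from responses to foreign compounds), 4 were found and 4 of 4 fell at FPX 2 d against 0 d, where 28.1% of all probe sets were called lower. AER (AT5G16970), an alkenal reductase, changed by −1.57 ± 0.10 (limma adjusted p = 1.9e-07), and the glycosyltransferase genes UGT73B5 (AT2G15480), UGT73B1 (AT4G34138) and UGT73B4 by −1.40, −1.07 and −0.80. From 2 d to 8 d, where 43.9% of all probe sets were called higher, UGT73B4 and UGT73B5 rose, by 2.91 ± 0.12 and 1.01 ± 0.23, AER fell by 0.81, and UGT73B1 had a value of −0.28 that did not pass (adjusted p = 0.0652). UGT73B1 passed in that contrast with the replicate block (−0.28, limma adjusted p = 0.0141), with array medians set equal (−0.35, 0.0288), after quantile normalization (−0.33, 0.0319) and without FPX 2 d replicate 1 (−0.36, 0.0357) or FPX 8 d replicate 3 (−0.38, 0.0271). At FPX 8 d against 0 d, where 54.9% were called higher, UGT73B4 rose (2.11), AER (−2.38) and UGT73B1 (−1.34) fell, and UGT73B5 had −0.39 (limma adjusted p = 0.126). UGT73B5 passed in that contrast with array medians set equal (−0.64, adjusted p = 0.0206), after quantile normalization (−0.74, 0.00809) and without FPX 2 d replicate 2 (−0.39, 0.0404). Signals of UGT73B4 were 379, 419 and 299.7 at 0 d, 182, 208 and 215 at FPX 2 d and 1751, 1496 and 1613 at FPX 8 d, lowest at 2 d and highest at 8 d as for GSTU26 and ATGSTF13. No ABCC transporter or TGA factor of the list was found under a probe set of 1 gene, so the counts above speak only for AER and the UGT73B genes. UGT73B5 has a dim probe set. Cross-hybridization between the UGT73B genes was not tested.

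Transcripts listed as markers of several tissues moved over the same times. In whole seedlings fewer cells of a type and less RNA per cell cannot be told apart. Of 8 shoot mesophyll markers 3 were found (PRK, RCA and LHCB4.2). Their summed signal lay between 39163 and 42589 at 0 d, between 33605 and 35240.2 at 2 d and between 17311 and 20607 at 8 d, in the direction of GSTU18. PRK is also among the 3 genes most like GSTU18 above. Of 8 root markers 2 were found (PYK10 and NAI2), with sums of 17415 to 17631, 13315 to 14281 and 13539 to 14710.1 at these times. The 2 genes parted after 2 d. From 2 d to 8 d PYK10 had a value of −0.08 (limma adjusted p = 0.355) and NAI2 rose by 0.53. At FPX 8 d against 0 d they had −0.39 and −0.02. Whether these 2 genes mark roots alone was not tested. The seed oleosin gene OLEO3, 1 of 5 seed markers, has a dim probe set. Its signals were between 60.3 and 71.3 at 0 d, between 32.1 and 49.4 at 2 d and between 124 and 146 at 8 d. OLEO3 was lowest and highest at the same times as GSTU26 and ATGSTF13. LBD16, 1 of 6 markers of root meristem and callus founder cells, had 121 to 173, 565 to 626 and 264 to 333 at 0, 2 and 8 d, and the sums of 2 stomatal markers of 6 were 631 to 766, 295 to 365 and 92.4 to 156. Of these, STOMAGEN fell at FPX 2 d against 0 d (−1.45), and FMA had a value of 0.05 (limma adjusted p = 0.804), with means of 129 at FPX 2 d and 122 at 0 d. STOMAGEN had a mean of 571 at 0 d and so made up most of the sum there. FMA has a dim probe set. Whether STOMAGEN and FMA mark stomatal cells alone was not tested. The trichome gene SIM (1 of 4) had 768 to 899, 659 to 719.8 and 253 to 327, the phloem gene SWEET11 (1 of 5) had 2282 to 2447, 2044 to 2109 and 1663 to 1971, and no marker of root hairs or xylem (0 of 5 each) was found. The ranges of SIM, SWEET11 and the stomatal sum were lower at each later time, so they too moved in the direction of GSTU18. That did not hold for FMA alone at 2 d. The part of these tissues in the changes of the 4 genes was not tested.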

How the data were processed

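The authors deposited 1 table of array intensity, linear MAS5 signals of probe sets on 9 arrays (3 per group), and MAS5 is named per the submitters' processing notes. The MAS5 version, the scaling between arrays and the choice of probe sets are not given in the sources used here. Arrays had 75th percentiles of signal between 1046 and 1103. Signal above background is unknown, since detection calls were not used, and precision is limited by the 3 arrays of each group.

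Of 11249 probe sets, 21 Affymetrix controls were left out and 11228 tested. By platform annotation 5981 had 1 gene, of which 5962 were matched to RefSeq by gene identifier. Several genes were given for 222 and 5025 were unnamed here.

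Values were log2(signal + 16), with no further scaling or filter on dim probe sets. 1 mean per group was fitted over all 9 arrays with limma 3.58.1 (R 4.3.3), giving two-sided moderated tests in 3 contrasts, with Benjamini-Hochberg adjustment over all probe sets and a threshold of 0.05. In simulated data of 11228 probe sets, 92, 93 and 92 of 100 changed 2-fold were recovered in FPX 2 d minus 0 d, FPX 8 d minus 0 d and FPX 8 d minus FPX 2 d, and 66, 63 and 68 of 100 changed 1.5-fold. All other simulated probe sets were left unchanged, and 7, 15 and 11 of these were called. Far more of the deposited table was called (72.7%, 91% and 76%), so these recoveries need not hold for it. The labels do not say that numbered arrays came from separate cultures, so p-values cover only spread that may be technical. The members, gene lists and tests were chosen with earlier results of these data known. Named were all 4 genes, all other listed glutathione transferases found, up to 4 genes of each other list, the 3 most like genes of each of the 4 and chromosome neighbours. Other genes were named after their values were seen. The alternatives were other pseudocounts (1 and 64), array medians set equal, quantile normalization, scaling on 7 hybridization controls, leaving out the 2807 dimmest probe sets, the replicate number as a block, and leaving out each array. Python 3.11.15, pandas 2.3.3, NumPy 2.4.6 and matplotlib 3.10.9 were used for tables and plots.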

Additional observations from a re-analysis of the deposited data

Results flagged for a closer look

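The change against 0 d differed between FPX 8 d and FPX 2 d, by the limma test of FPX 8 d minus FPX 2 d, for 10 of the 12 genes found in the lists of other glutathione transferases, glutathione metabolism and detoxification partners. In that contrast 76% of all probe sets were called, so nothing about these genes is read from the count. GSTU27 and UGT73B1 did not pass, and marker genes are not counted here. The log2 difference was 2.91 for UGT73B4, 1.01 for UGT73B5, −0.81 for AER, −0.52 for GR1, −1.0 for GR, −0.96 for GSTF4, −0.52 for GSTU16, −0.52 for GSTU22, −0.74 for GSTU20 and −0.83 for GSTL3. The adjusted p ran from 9.84e-09 (UGT73B4) to 0.0318 (GSTU22).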

How the results depend on the processing

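Over the 16 alternatives the 4 genes kept the sign of every change except that of GSTU25 for FPX 2 d minus 0 d, which ran from −0.28 to 0.01. Changes for FPX 2 d minus 0 d ran from −0.42 to −0.13 for GSTU18, from −1.42 to −1.13 for GSTU26 and from −1.42 to −0.74 for ATGSTF13. For FPX 8 d minus FPX 2 d they ran from −2.03 to −1.71 for GSTU18, 1.99 to 2.22 for GSTU25, 2.22 to 2.57 for GSTU26 and 1.79 to 2.80 for ATGSTF13, and for FPX 8 d minus 0 d from −2.38 to −1.88, 1.72 to 2.23, 0.92 to 1.43 and 0.96 to 1.54 in the same order. ATGSTF13 was among the 2807 dimmest probe sets, so 15 alternatives apply to it. The median of all probe sets at 2 d against 0 d was −0.01 with array medians set equal, 0.03 after quantile normalization and 0.27 under the scaling on hybridization controls, and of the calls 46.4%, 51% and 70.0% were higher, against 61.3% as deposited. At 8 d against 0 d the median was 0.11, 0.17 and 0.60.

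The count of other glutathione transferases called was 1 to 3 for FPX 2 d minus 0 d when single arrays were left out, and 3 of the 4 left for FPX 8 d minus FPX 2 d without the 2807 dimmest probe sets, where fewer genes are tested. Of the 2 glutathione reductases, 0 were called for FPX 2 d minus 0 d with array medians set equal. For FPX 8 d minus 0 d 1 was called after quantile normalization, under the scaling on hybridization controls and with the replicate block, and 1 to 2 without single arrays. GR1 turned to 0.05 in that contrast under the scaling on hybridization controls. The cause was not tested. With the replicate block, 8115, 10191 and 8507 probe sets were called in the 3 contrasts, against 8160, 10217 and 8534 without it. Same-numbered arrays deviated together at r = −0.0914 to 0.106 over probe sets. Between FPX 2 d and FPX 8 d these values were 0.0785, 0.0606 and 0.106, against −0.068 to −0.00513 for arrays of unlike number. Between FPX 2 d and 0 d they were 0.0122 to 0.0431, against −0.0277 to 0.011. Between FPX 8 d and 0 d they were −0.0914 to 0.0841, against −0.0928 to 0.109. All were small, and the numbers were not taken as pairs. Whether arrays of one number shared a run or culture was not tested.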
